A study of Mus musculus with 7 samples.

Results

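The genes described here are the ligands, receptors and effectors of the Wnt pathway, followed in 2 classes of sorted hypothalamic neurons. They were taken by symbol alone, as the rows named Wnt, Fzd, Sfrp, Dkk1 to Dkk4, Axin1, Axin2, Lrp5, Lrp6, Tcf7, Tcf7l1, Tcf7l2, Lef1, Ctnnb1, Rspo1 to Rspo4, Lgr4 to Lgr6, Znrf3, Rnf43, Dvl1 to Dvl3, Apc and Gsk3b, which gave 55 of the 18335 rows of the deposited table. RNA came from mouse embryos at E15.5, a late embryonic day, in which arcuate nuclei were dissected and dissociated and neurons were purified by fluorescence. One group, of 4 libraries, held Pomc neurons, which make the precursor of appetite-suppressing melanocortin peptides. The other was labelled Npy, for neurons that make neuropeptide Y, and has 3 columns, of which 2 were used. No treatment and no other genotype is given, and neither the reporter behind the sort nor the strain and animals behind each library are stated. The p-values therefore reflect spread between libraries alone, and that spread may be technical.

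In the canonical Wnt pathway a secreted Wnt protein binds a Frizzled receptor together with the coreceptor LRP5 or LRP6. Dishevelled then blocks a complex of APC, AXIN and GSK3 that otherwise marks beta-catenin for destruction, and the beta-catenin that accumulates enters the nucleus and binds TCF/LEF proteins, which hold the DNA of target genes. Without beta-catenin the TCF/LEF proteins work with Groucho (TLE) corepressors. R-spondins act through LGR receptors to protect Frizzled proteins from the ubiquitin ligases ZNRF3 and RNF43, while SFRP and DKK proteins act outside the cell as inhibitors. In the developing forebrain the pathway is known for patterning, progenitor division and axon growth, and Tcf7l2 is a known marker of thalamic neurons and of maturing oligodendrocytes.

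The values were read as TPM, a level of transcript scaled by gene length and by the total of each library. The unit is not stated, and column totals do not show scaling by gene length. Comparisons of level between genes rest on reading the values as TPM. The table holds no read counts, and the depth behind each value is therefore unknown. Between 12493 and 14933 genes were above 0 in the 6 libraries used. Short RNA genes took 10.8 to 13.1% of TPM across the Pomc libraries and 14.1 and 17.3% in the Npy libraries, a difference in composition that ran with the groups. The third Npy column was left out because, in all 15223 genes with a value in either of the other Npy columns, it equals their mean times a whole percent from 95 to 105. Pomc itself stood at 352 to 770 TPM across the Pomc libraries and at 24.03 and 59.4 TPM across the Npy pair. Npy stood at 728 and 513 TPM across the Npy pair and at 152, 2.11, 81.0 and 54.2 TPM in Pomc replicates 1 to 4. The 6 genes listed as markers of oligodendrocyte precursors summed to 228 and 207 TPM across the Npy pair against 0.444 to 2.64 TPM across the Pomc libraries.

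Tcf7l2 was the single Wnt pathway gene that passed the test between Pomc and Npy neurons, with a mean level 16.9-fold higher in the Pomc libraries. Transcripts of its partner beta-catenin, and of GSK3B, AXIN1, Dishevelled, LRP6 and FZD3, were present in both groups and did not pass. Of the 55 genes, 33 reached 1 TPM in at least 2 of the 6 libraries and were tested, and 1 of these 33 was called at an adjusted p of at most 0.05, where 0.412% of all 13845 tested genes were called. By direction, 1 of 33 was higher in Pomc neurons against 0.289% of all tested genes, and 0 of 33 were lower against 0.123% (limma; at an unadjusted p under 0.05 there were 7 of 33, or 21.2%, against 7.36% of all tested genes, 4 higher and 3 lower). The groups did not overlap in 9 of the 33, or 27.3%, against 15.9% of all tested genes. In 5 of the 9 all Pomc values lay above both Npy values, which held for 8.05% of all tested genes, and in 4 they lay below, which held for 7.86%. The median log2 fold change was 0.12 over the 33 and 0.02 over all tested genes.

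TCF/LEF proteins are the DNA-binding partners of beta-catenin, and 4 genes encode them. Tcf7l2 (ENSMUSG00000024985, chromosome 19, 55741820 to 55933654, GRCm38, plus strand) stood at 168, 85.2, 109 and 102 TPM in Pomc replicates 1 to 4 and at 4.52 and 9.24 TPM in Npy replicates 1 and 2. The lowest Pomc library was 9.22-fold above the highest Npy library, and Pomc replicate 1 was the highest of all. The Pomc mean was 116 ± 35.9 TPM (SD, n = 4), and the log2 fold change on the log2(TPM + 1) scale was 3.92 ± 0.36 (SE, limma adjusted p = 0.00293), the seventh smallest p among all tested genes. In these bulk libraries, fewer cells with Tcf7l2 and less Tcf7l2 RNA per cell cannot be told apart. The annotation places the noncoding gene Ppnr within Tcf7l2 on the same strand, and how reads there were assigned is not stated.

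The RefSeq table gives 2 start sites for Tcf7l2, and the 250 bases before each are shown because it is the called gene of the pathway. The bases before Axin2 are shown beside them, since Axin2 is the usual readout of canonical Wnt signalling. Capitals mark CTTTG, the core of the TCF/LEF motif, or its complement CAAAG on the other strand (RefSeq, GRCm38.p6, all on the plus strand, 5′ to 3′).
Tcf7l2 first start, chr19:55741560-55741809: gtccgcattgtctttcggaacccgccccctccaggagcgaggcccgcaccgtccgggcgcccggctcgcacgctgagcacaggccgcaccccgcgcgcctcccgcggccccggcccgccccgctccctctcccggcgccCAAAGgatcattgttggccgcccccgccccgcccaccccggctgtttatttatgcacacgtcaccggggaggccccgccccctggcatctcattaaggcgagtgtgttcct
Tcf7l2 second start, inside the gene, chr19:55895071-55895320: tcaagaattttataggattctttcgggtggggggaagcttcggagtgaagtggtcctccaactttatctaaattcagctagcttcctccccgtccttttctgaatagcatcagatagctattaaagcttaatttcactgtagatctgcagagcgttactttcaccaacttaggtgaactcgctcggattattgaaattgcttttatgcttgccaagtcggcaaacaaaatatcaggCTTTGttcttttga
Axin2, chr11:108920099-108920348: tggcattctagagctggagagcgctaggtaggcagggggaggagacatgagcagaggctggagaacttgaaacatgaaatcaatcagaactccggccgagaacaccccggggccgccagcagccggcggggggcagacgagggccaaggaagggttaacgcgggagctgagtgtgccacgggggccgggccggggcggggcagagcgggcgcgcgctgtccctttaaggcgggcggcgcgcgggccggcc

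Each Tcf7l2 window held the core 1 time, 111 bases before the first start and 14 bases before the second, and the Axin2 window did not hold it. The core is short, and 48.6% of all 32851 windows of this length in the RefSeq table held it on 1 strand or the other. The fuller words CTTTGAA or else CTTTGAT, and also the words CTTTGTA or else CTTTGTT, all of which contain the core, were searched on both strands as well. One of them was found before the second Tcf7l2 start and none before the first. At least 1 of these words was found in 6 of the 47 windows that matched 37 of the 55 genes, or 12.8%, against 14.8% of all windows. These matches describe the letters of these windows and not bound sites.

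The other TCF/LEF genes were low in both groups. Lef1, the relative that acts mainly as an activator, stood at 3.76, 8.54, 11.1 and 10.02 TPM in Pomc replicates 1 to 4 and at 1.12 and 3.20 TPM across the Npy pair. All 4 Pomc values lay above both Npy values, by a small margin for Pomc replicate 1, and the difference did not pass (log2 1.57 ± 0.67, limma adjusted p = 0.651). Tcf7l1, which acts mainly as a repressor, stood at 5.67, 0.766, 4.62 and 9.22 TPM against 4.88 and 11.9 TPM, so the groups overlapped. Tcf7, a factor also known from T lymphocytes, was at or under 0.852 TPM in Pomc replicates 1 to 3 and at 6.89 TPM in replicate 4, against 4.04 and 0.582 TPM across the Npy pair. The 7 genes listed for microglia summed to 43.0 TPM in the same Pomc replicate 4 and to 0 to 9.97 TPM in the other 5 libraries. In replicate 4 the sum came mainly from P2ry12 (22.7 TPM), Csf1r (13.1 TPM) and Cx3cr1 (6.55 TPM), while C1qb was highest in Npy replicate 2 (8.33 TPM), Aif1 had a value in Pomc replicate 3 alone (2.27 TPM) and C1qa and Trem2 were listed at 0 throughout. The part of such cells in the Tcf7 value was not tested.

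The make-up of the family differed between the groups. Tcf7l2 held 94.2, 90.2, 87.0 and 79.7% of the summed TCF/LEF level in Pomc replicates 1 to 4 and 31.0 and 37.1% in Npy replicates 1 and 2. This share is taken within a library, so it does not depend on the scaling between libraries. In the Npy libraries Tcf7l1 held 33.5 and 47.8% of the family, against 0.811 to 7.18% in the Pomc libraries. Levels of Tcf7l1 itself overlapped, so these shares largely restate the Tcf7l2 difference and are no separate result. The summed level was 94.5 to 178 TPM across the Pomc libraries and 14.6 and 24.9 TPM across the Npy pair.

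**Figure D1:**
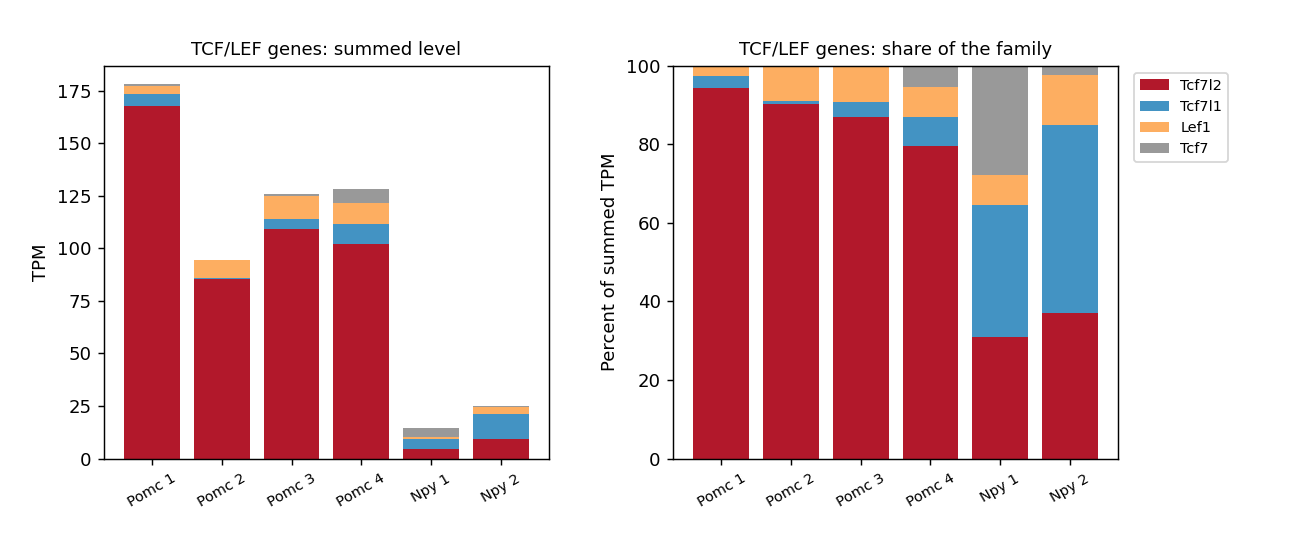
TCF/LEF genes in each of the 6 libraries, as stacked levels in TPM (left) and as percent of the family's summed TPM in that library (right); each bar is 1 library and colours are genes. Tcf7l2 makes up 79.7 to 94.2% of the bar in the 4 Pomc libraries and 31.0 and 37.1% in the 2 Npy libraries.

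Tcf7l2 is also expressed by cells other than arcuate neurons, so marker genes were read beside it. Of 10 genes listed for thalamic and habenular neurons 7 were tested and none was called, where 0.412% of all tested genes were called. Foxp2 alone was at an unadjusted p under 0.05 (limma), against 7.36% of all tested genes. The summed level of the 10 genes was 176 to 256 TPM across the Pomc libraries and 272 and 183 TPM across the Npy pair, so the groups overlapped. The largest part of each sum was Prox1, at 111 to 165 TPM against 213 and 153 TPM. Of the 10 genes, Foxp2 (36.3 to 54.4 TPM against 20.0 and 2.85 TPM) and Barhl2 (0.824 to 1.91 TPM against 0 and 0.652 TPM) were higher in all Pomc libraries without overlap, against 8.05% of all tested genes. None was lower without overlap, against 7.86% of all tested genes. The defining factors Gbx2 and Pou4f1 were listed at 0 in all 4 Pomc libraries, and Lhx9 in 3 of them. They were near 0 in Npy replicates 1 and 2 as well, with Gbx2 at 1.01 and 0 TPM, Pou4f1 at 0.152 and 0 TPM and Lhx9 at 0.501 and 0 TPM. The part of such cells in the Tcf7l2 level was not tested. The list for ventromedial nucleus neurons did move with Tcf7l2. It summed to 298 to 445 TPM across the Pomc libraries and to 57.9 and 35.0 TPM across the Npy pair. Of its 7 genes, 3 were called higher in Pomc neurons (Nr5a1, Sox14 and Adcyap1), against 0.289% of all tested genes. Which cells held these transcripts was not tested, nor was the part of any ventromedial cells in the Tcf7l2 level. The 6 oligodendrocyte precursor genes were all called lower in Pomc than in Npy neurons, against 0.123% of all tested genes. They were listed for precursors, and the part of maturing oligodendrocytes in the Tcf7l2 level was not tested. The radial glia and astrocyte genes summed to 352 to 747 TPM against 700 and 490 TPM.

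Apc, Ctnnb1 and Gsk3b had the 3 highest mean levels of the 55 genes in Pomc neurons, while in Npy neurons the mean of Dvl3 (187 TPM) was just above that of Gsk3b (185 TPM). Ctnnb1 (beta-catenin) stood at 283, 365, 271 and 306 TPM in Pomc replicates 1 to 4 and at 334 and 369 TPM across the Npy pair, with overlapping groups. Its log2 fold change of -0.21 ± 0.18 (limma adjusted p = 0.855) has a 95% interval from 0.655-fold to 1.15-fold, which leaves out a change of the size seen for Tcf7l2. The ratio of Tcf7l2 to Ctnnb1 TPM was 0.233 to 0.593 in the Pomc libraries and 0.0135 and 0.0251 in the Npy libraries. Gsk3b, the kinase of the complex, stood at 191 to 250 TPM against 187 and 182 TPM. These groups did not overlap but differed little (log2 0.26 ± 0.17, adjusted p = 0.812), with an interval from 0.912-fold to 1.57-fold.

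The scaffolds of the complex differed in how evenly they were measured. Apc stood at 296, 350, 363 and 403 TPM across the Pomc libraries and reached 340 and 120 TPM in Npy replicates 1 and 2. The low group mean in Npy neurons therefore came from replicate 2, and the log2 fold change of 0.79 ± 0.35 (limma adjusted p = 0.675) became 1.54 with an adjusted p of 0.0413 without Npy replicate 1 and 0.04 with an adjusted p of 0.999 without Npy replicate 2. Axin1 stood at 28.1 to 54.0 TPM against 48.9 and 49.9 TPM. Axin2, a direct target that feeds back on the pathway, stood at 15.9, 25.1, 24.5 and 21.4 TPM across the Pomc libraries and at 27.8 and 25.5 TPM across the Npy pair. All Pomc values were below both Npy values, the reverse of Tcf7l2, but by a small margin, and the difference did not pass (log2 -0.30 ± 0.36, adjusted p = 0.888, interval 0.462-fold to 1.42-fold).

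Dishevelled proteins relay the signal from the receptors, and all 3 genes were abundant in the order Dvl3, Dvl1, Dvl2 in each of the 6 libraries. Dvl3 stood at 145, 239, 165 and 141 TPM across the Pomc libraries and at 184 and 190 TPM across the Npy pair. Dvl1 stood at 37.3 to 88.2 TPM against 75.7 and 74.4 TPM, and Dvl2 at 9.85 to 58.2 TPM against 32.5 and 31.8 TPM. None of the 3 was called (limma adjusted p 0.882 to 0.933), and in each the Npy values lay within the Pomc range. In all 3 the highest library was Pomc replicate 2 and the lowest Pomc replicate 4.

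Of the coreceptors, Lrp6 was the main transcript in both groups, with 88.1 to 95.6% of the summed coreceptor level in the Pomc libraries and 90.8 and 89.9% in the Npy libraries. It stood at 37.1, 86.2, 68.9 and 55.5 TPM against 58.4 and 58.2 TPM. The Npy pair lay inside the Pomc range, and the log2 fold change was 0.02 ± 0.33 (limma adjusted p = 0.992, interval 0.607-fold to 1.70-fold), with a sign that turned under each of the 3 other scalings. Lrp5 stood at 2.53 to 9.15 TPM against 5.89 and 6.52 TPM (adjusted p = 0.948).

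Frizzled proteins are the receptors of Wnt ligands, and the table holds all 10. Fzd3, a receptor known for axon guidance, led in 5 of the 6 libraries, at 75.8, 102, 92.7 and 98.4 TPM across the Pomc libraries and 83.4 and 71.4 TPM across the Npy pair. Fzd5, known from the eye and forebrain, followed at 52.5, 133, 63.7 and 48.8 TPM against 29.4 and 69.4 TPM, and exceeded Fzd3 in Pomc replicate 2. The groups overlapped for both (log2 0.24 ± 0.21 and 0.58 ± 0.46, limma adjusted p = 0.855 and 0.839). Together they held 78.2 to 90.3% of the summed Frizzled level in the Pomc libraries and 89.4 and 84.1% in the Npy libraries.

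The lower Frizzled genes pointed in different directions and none passed. Fzd8 stood at 5.93, 13.9, 8.34 and 20.8 TPM across the Pomc libraries and at 2.93 and 7.03 TPM across the Npy pair, and Fzd2 at 0.438 to 11.2 TPM against 0.794 and 1.64 TPM. Fzd1 stood at 5.21 to 18.9 TPM against 3.48 and 6.59 TPM. Fzd7, a receptor of neural progenitors and glia, ran the other way, at 1.018, 2.83, 0.143 and 0 TPM across the Pomc libraries and at 4.91 and 10.7 TPM across the Npy pair. Its groups did not overlap, but its log2 difference of -2.27 ± 0.78 missed the threshold (limma adjusted p = 0.514). Of the remaining 4, Fzd10 was listed at 0 in all 6 libraries, and Fzd4, Fzd6 and Fzd9 reached at most 1.57 TPM in any library and were not tested.

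R-spondins raise the amount of Frizzled at the surface by way of LGR receptors. Lgr4, the widely expressed receptor, stood at 21.5, 29.0, 21.8 and 24.8 TPM across the Pomc libraries and at 13.0 and 7.25 TPM across the Npy pair. The Pomc values were close together and all above the Npy pair, with a mean 2.40-fold higher, but the difference did not pass (log2 1.23 ± 0.41, limma adjusted p = 0.494). Rspo3, a ligand of Lgr4, stood at 3.79, 7.49, 1.5 and 3.32 TPM against 1.20 and 0 TPM, again with no overlap and no call (log2 1.63 ± 0.74, adjusted p = 0.694). The stem cell receptors Lgr5 and Lgr6 and the ligands Rspo1, Rspo2 and Rspo4 reached at most 1.35 TPM in any library and were not tested. Of the opposing ubiquitin ligases, Znrf3 stood at 2.92 to 9.81 TPM against 9.53 and 1.38 TPM, while Rnf43 was listed at 0 in all Pomc libraries and at 0.286 and 0 TPM across the Npy pair.

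Ligand transcripts were low in both sorted populations. The 15 Wnt genes in the table summed to 29.1 to 40.6 TPM across the Pomc libraries and to 36.7 and 48.3 TPM across the Npy pair. Wnt7a, which acts in axon remodelling and synapse formation, was the highest ligand by mean in both groups, at 16.2, 12.3, 12.6 and 17.1 TPM against 10.8 and 29.3 TPM. The Npy libraries lay on either side of the Pomc range, and the difference did not pass (log2 -0.29 ± 0.50, limma adjusted p = 0.924). Wnt4 stood at 7.43, 7.73, 8.22 and 2.50 TPM against 12.1 and 5.68 TPM, and Wnt3 at 1.96 to 13.96 TPM against 3.22 and 8.14 TPM. Wnt7b, which is known for vascular development of the brain, stood at 2.00, 1.63, 0.468 and 0 TPM across the Pomc libraries and at 6.99 and 4.999 TPM across the Npy pair. Its groups did not overlap, and its log2 difference of -1.91 ± 0.72 missed the threshold (adjusted p = 0.573).

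The remaining ligands were low or uneven between libraries. Wnt5a, the ligand of noncanonical signalling, stood at 7.53 TPM in Pomc replicate 4 and at 0.218 to 0.892 TPM in the other 5 libraries. Wnt2b stood at 5.19 TPM in the same library and at 1.58 TPM or less elsewhere. Wnt5b stood at 1.03 to 2.19 TPM in Pomc replicates 1 to 3 and 1.3 TPM in Npy replicate 1, and was listed at 0 in Pomc replicate 4 and Npy replicate 2. Wnt2, Wnt8b, Wnt9b, Wnt10a and Wnt11 were listed at 0 in all 6 libraries, and Wnt6, Wnt9a and Wnt16 had a value in 1 library each, of at most 1.39 TPM. Wnt2b was the 1 gene that entered the test through Pomc libraries alone.

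Of the secreted inhibitors, Sfrp1 and Sfrp4, which bind Wnt proteins, were the highest. Sfrp1 stood at 13.9, 11.1, 10.7 and 12.2 TPM across the Pomc libraries and at 13.3 and 6.80 TPM across the Npy pair. Sfrp4 stood at 6.76, 1.20, 7.09 and 5.34 TPM against 16.1 and 15.6 TPM, and all Pomc values lay below the Npy pair. The difference did not pass (log2 -1.63 ± 0.69, limma adjusted p = 0.650). The ratio of Sfrp4 to Sfrp1 was 0.109 to 0.660 in the Pomc libraries and 1.20 and 2.29 in the Npy libraries. Sfrp2 stood at 0 to 3.02 TPM against 2.47 and 7.47 TPM. Dkk3, a divergent member of the Dickkopf family, stood at 0.885 to 4.83 TPM against 1.89 and 0.388 TPM. Dkk1 and Dkk2, inhibitors that bind LRP coreceptors, reached at most 0.410 TPM, and Sfrp5 was listed at 0 throughout.

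Glial markers were read beside Fzd7, Wnt7b and Sfrp4, which with Axin2 are the tested genes with lower Pomc values and no overlap (the untested Rspo1, at most 0.718 TPM, did not overlap either). The oligodendrocyte precursor genes had lower Pomc values as well. The radial glia and astrocyte list was mixed. Of its 9 genes, 4 were lower in all Pomc libraries (Aldoc, Fabp7, Hes5 and Nes), against 7.86% of all tested genes. Another 1 was higher (Glul), against 8.05%, and 4 overlapped (Hes1, Slc1a3, Sox9 and Vim). Called were 0 of 9, against 0.412% of all tested genes (limma; 4 at an unadjusted p under 0.05, against 7.36%). Fabp7 had the largest difference of the list, at 1.61 to 61.6 TPM against 323 and 176 TPM, while Glul stood at 68.2 to 86.5 TPM against 51.9 and 54.3 TPM. Of 10 genes listed for dividing cells, 4 were lower in all Pomc libraries without overlap, against 7.86% of all tested genes. None was higher without overlap, against 8.05%, and 0 were called, against 0.412%. The part of such cells in the values of Fzd7, Wnt7b and Sfrp4 was not tested.

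**Figure D2:**
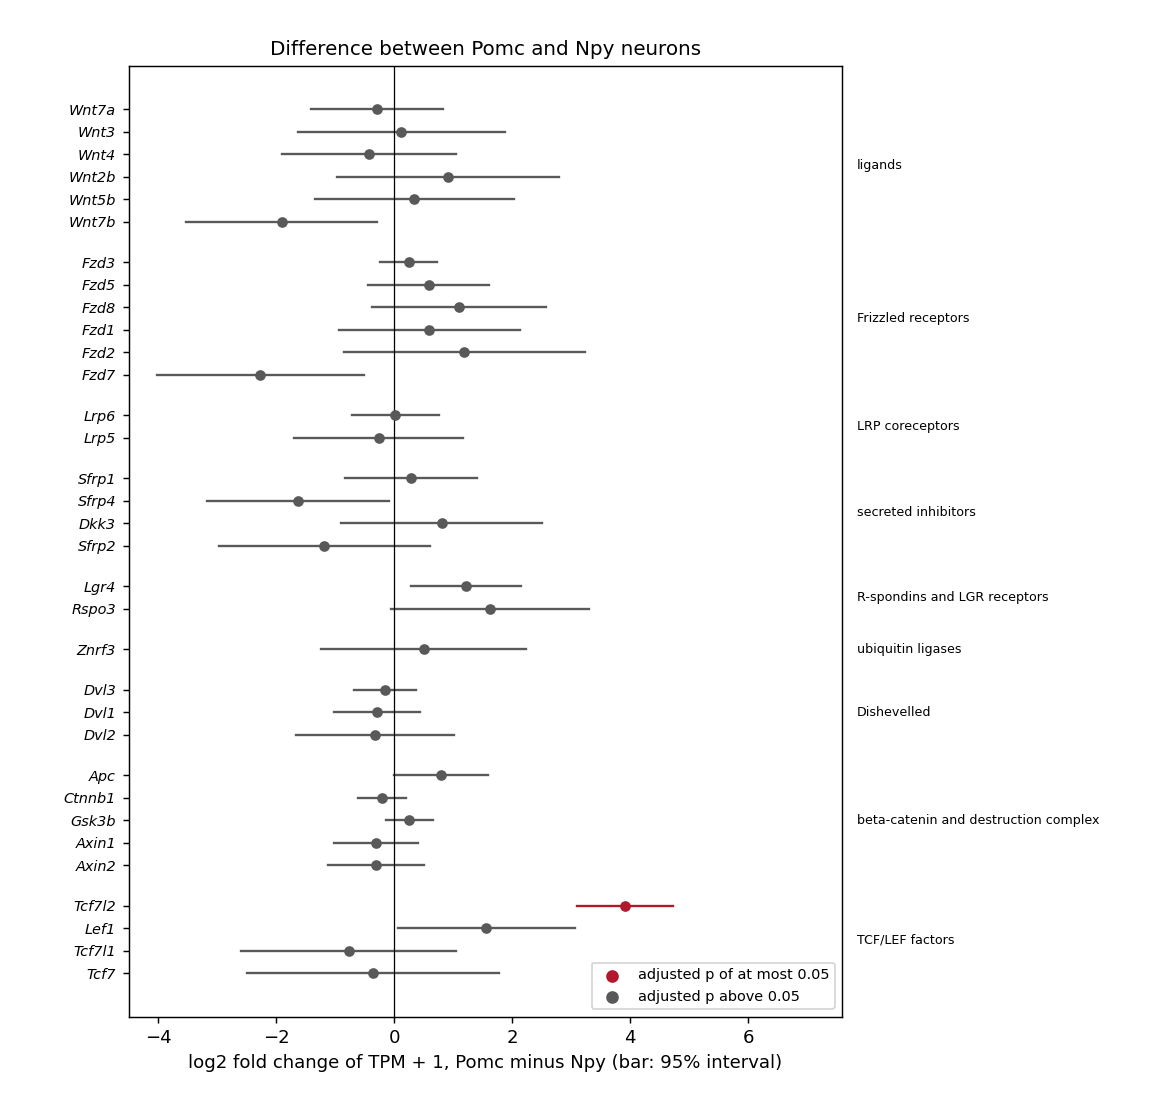
Log2 fold change of TPM + 1, Pomc minus Npy, for the 33 tested genes (points) with the 95% interval of the limma fit (bars), grouped by role; red marks an adjusted p of at most 0.05. Tcf7l2 at 3.92 stands alone in red, and the intervals of Ctnnb1, Gsk3b, Fzd3 and Dvl3 are the narrow ones around 0.

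Variation within the Pomc group was uneven across these genes. Pomc replicate 2 was the highest Pomc library for 15 of the 33 genes, or 45.5%, against 31.3% of all tested genes, and for 4 of the 6 tested Frizzled genes. Pomc replicate 4 was the lowest for 13 of 33, or 39.4%, against 33.7% of all tested genes, and it also had the fewest genes above 0. It held the highest Pomc values of Wnt7a, Wnt5a, Wnt2b, Fzd2, Fzd8, Tcf7l1, Tcf7, Apc and Gsk3b, among others. The plot of levels by library shows a wide spread for low genes such as Tcf7 and Wnt2b and a narrow one for Fzd3, Ctnnb1 and Gsk3b.

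**Figure D3:**
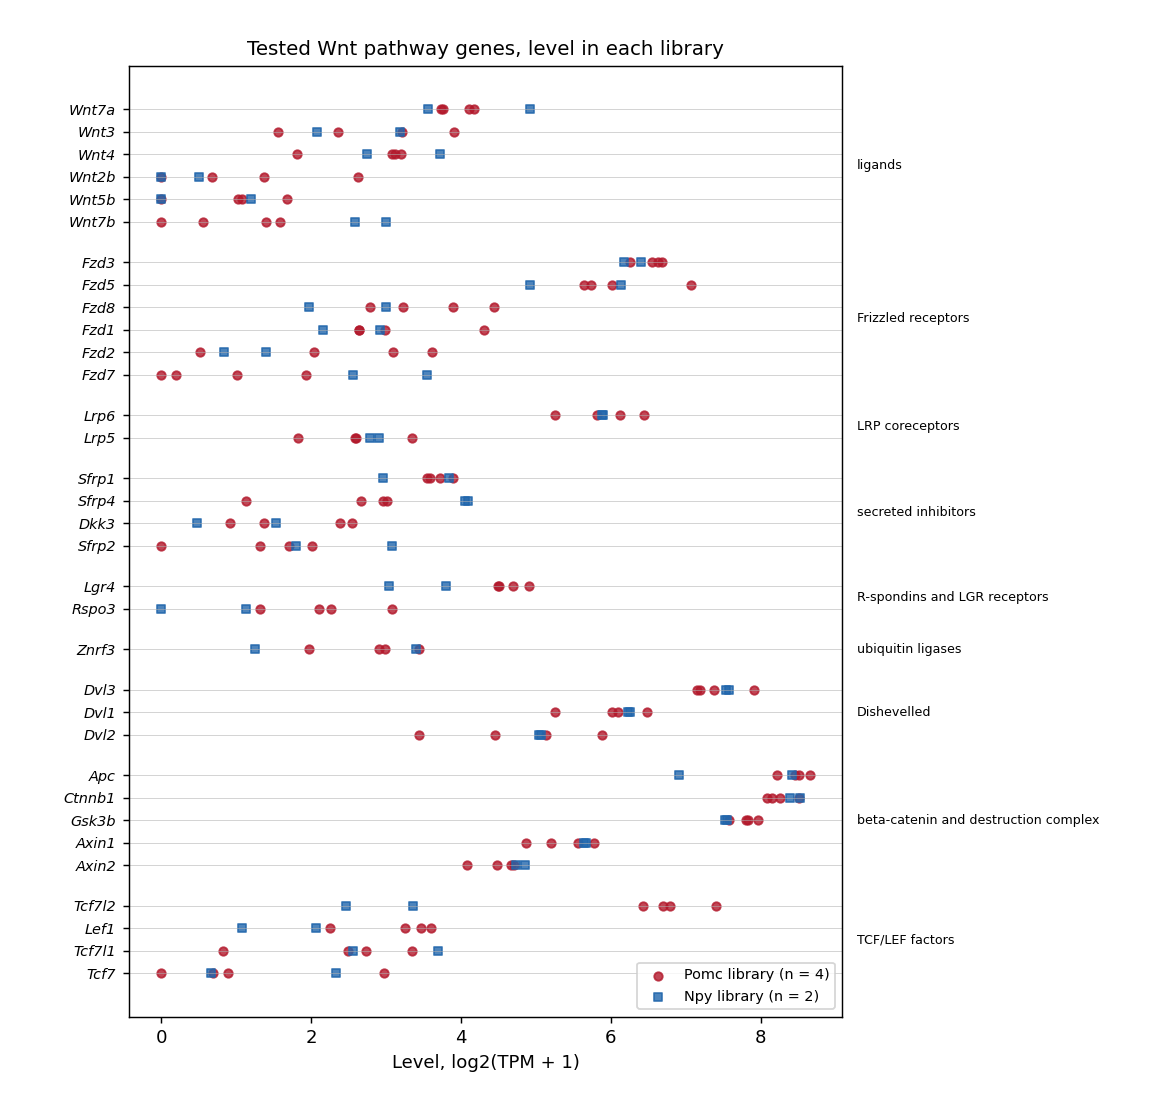
Level of each of the 33 tested genes on the log2(TPM + 1) scale (horizontal axis) in the 4 Pomc libraries (red circles) and 2 Npy libraries (blue squares), grouped by role. The 2 colours separate most widely for Tcf7l2, where the Pomc libraries run from 85.2 to 168 TPM and the Npy libraries stand at 4.52 and 9.24 TPM.

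Other genes of the pathway were read from a list of 94 symbols, of which 90 are in the table and 75 were tested. Of the 75, 2 were called, both higher in Pomc neurons, and none lower, where 0.412% of all tested genes were called, 0.289% higher and 0.123% lower. At an unadjusted p under 0.05 there were 15 of 75 (13 higher, 2 lower), against 7.36% of all tested genes. The median log2 fold change was 0.08, against 0.02 over all tested genes. By function, none was called among 2 tested genes of ligand release, 9 of other surface modulators, 3 of other receptors, 10 of planar polarity and 21 of kinases and the destruction complex. There was 1 call among 20 nuclear partners and 1 among 12 target genes, single genes set against the same 0.412% of all tested genes. Apcdd1 and Nkd1 are each counted in 2 of these classes.

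The 2 called genes were Tle4 and Tbx3. Tle4, a Groucho corepressor that binds TCF/LEF proteins, stood at 231, 257, 226 and 294 TPM across the Pomc libraries and at 124 and 101 TPM across the Npy pair. The groups were well apart (log2 1.15 ± 0.19, limma adjusted p = 0.0408), but the call ended when any 1 of the 6 libraries was left out (adjusted p 0.0653 to 0.509). Tbx3, a factor of arcuate neuron identity that is also listed as a Wnt target in other tissues, stood at 245, 301, 277 and 273 TPM against 99.2 and 141 TPM. Its call ended in the same way (log2 1.20 ± 0.20, adjusted p = 0.0397; 0.0783 to 0.150 with 1 library left out).

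Among the remaining listed genes at an unadjusted p under 0.05 and at least 10 TPM in 1 group, the 6 with the largest differences all had higher Pomc values and none passed. Myc, a growth regulator and known beta-catenin target, stood at 64.7, 40.7, 25.5 and 34.9 TPM against 9.95 and 4.26 TPM (log2 2.41 ± 0.48, limma adjusted p = 0.1098). Its relative Mycn stood at 78.3, 48.2, 54.6 and 46.3 TPM against 25.8 and 10.4 TPM (adjusted p = 0.195). The feedback inhibitor Nkd1 stood at 4.56, 13.8, 8.22 and 16.1 TPM against 1.83 and 2.75 TPM, and Apcdd1, a membrane inhibitor, at 9.43 to 22.4 TPM against 6.53 and 2.23 TPM. Groups did not overlap for these 4 genes, nor for the Wnt-binding protein gene Frzb (10.01 to 24.4 TPM against 0.958 and 5.94 TPM) and the adhesion gene Cd44 (2.19 to 34.7 TPM against 0.349 and 0.364 TPM). In Npy libraries, Wls, the carrier needed for Wnt secretion, stood at 1.13 and 5.32 TPM and was listed at 0 throughout the Pomc group (adjusted p = 0.564). Over the 12 tested target genes the log2 fold change was above 0 in 8 and below 0 in 4, with a median of 1.01. In 8 of the 12 all Pomc values were higher without overlap (Apcdd1, Cd44, Id2, Myc, Mycn, Nkd1, Nrcam and Tbx3), against 8.05% of all tested genes. In 2 they were lower, against 7.86% of all tested genes (Ccnd1, at 2.01 to 3.34 TPM against 5.72 and 6.99 TPM, and Jun, at 77.7 to 128 TPM against 131 and 162 TPM), as they were for Axin2. Of all these, Tbx3 alone passed the test, and the list was made with earlier results of these data known.

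**Figure D4:**
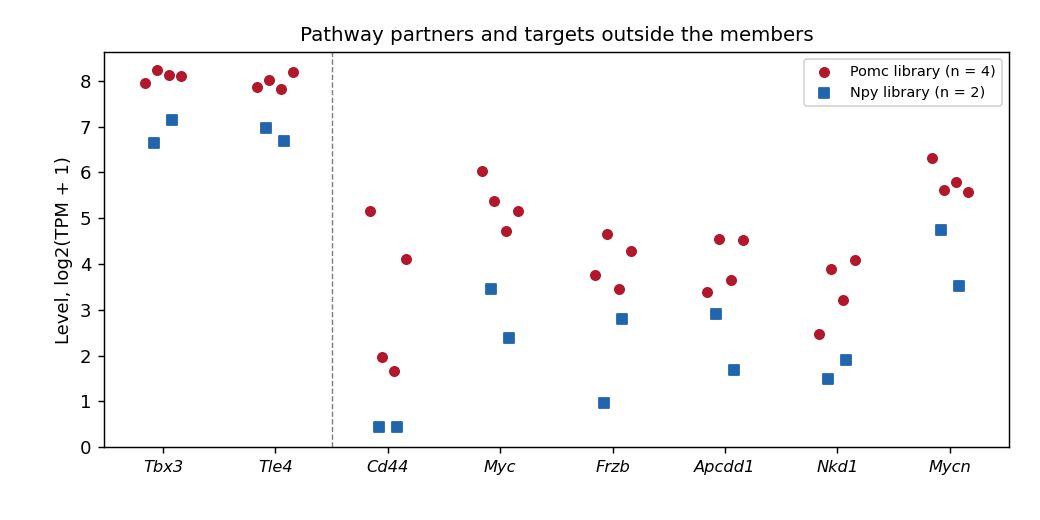
Level on the log2(TPM + 1) scale of 8 listed pathway genes outside the 55, in the 4 Pomc libraries (red circles) and 2 Npy libraries (blue squares); the dashed line parts the 2 called genes (left) from 6 that did not pass (right). In all 8 the Pomc points lie above the Npy points, for Tle4 at 226 to 294 TPM against 101 and 124 TPM.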

How the data were processed

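RNA of 4 Pomc and 3 Npy samples was measured, each from 1 ng of total RNA with a stranded total RNA kit, per the labels' protocols. The submitters' processing notes name HISAT2, edgeR 3.8 and the mm10 build, with no role or order. No counter, annotation, length definition or use of strand is stated there. The authors deposited 1 table without a stated unit, whose values were taken as TPM because 6 of 7 columns sum to between 999932 and 999960. Npy replicate 3, computed from the other Npy columns (within 1e-04 percentage points), was left out.

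Genes with at least 1 TPM in at least 2 of 6 libraries were tested with limma 3.58.1 (R 4.3.3, trended prior variance) on log2(TPM + 1), two-sided, with Benjamini-Hochberg adjustment over all 13845 genes and a threshold of 0.05. Fold changes are on this scale, which understates low genes, and ratios of TPM means are named as means. The 4 rows of repeated symbols were left out. Gene positions are from GENCODE M21 (GRCm38). The members and lists were chosen with earlier results of these data known. Described in full were called members, members whose groups did not overlap at 10 TPM or more, the defining genes and the highest of each role. Others, such as Fzd7, Wnt7b and Wnt5a, were named after their values were seen. Alternatives changed the pseudocount, filter, prior, scaling, libraries and replicate block.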

Additional observations from a re-analysis of the deposited data

Results flagged for a closer look

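Dixon's 95% critical value for a gap relative to a group's range is passed by chance in about 1 in 20 normally distributed groups. Of the 33 genes of the list with a Pomc mean of at least 1 TPM, 4 had a Pomc library set apart by a larger gap. These were Wnt5a at 7.53 TPM in Pomc replicate 4 (0.218 to 0.892 TPM in the others), Tcf7 at 6.89 TPM in replicate 4 (0 to 0.852 TPM), Wnt4 at 2.50 TPM in replicate 4 (7.43 to 8.22 TPM) and Fzd1 at 18.9 TPM in replicate 2 (5.21 to 6.91 TPM). Tcf7l2 was not among them. The gaps were taken in TPM, which need not be normally distributed for low genes, so the share expected by chance is not known here.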

How the results depend on the processing

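Tcf7l2 was called under 15 of 16 alternatives, counting the setting with Npy replicate 3, which adds no independent library. With any single library left out its log2 fold change was 3.47 to 4.36 (limma adjusted p 0.00444 to 0.0157). With the replicate block its log2 fold change was 4.00 with a limma adjusted p of 0.0584, and the number of called pathway genes was 0. Replicate numbers used in the Pomc group alone add nothing to this difference, which rests on replicates 1 and 2 of each group. The labels do not say that replicate numbers pair libraries, and deviations of same-numbered libraries correlated at -0.04 and -0.03. With 1 library left out, 1 to 2 pathway genes and 22 to 69 genes in all were called, the second pathway gene being Apc without Npy replicate 1. In all, 57 genes were called, against 37 with a pseudocount of 0.1, 33 without a filter, 205 with Npy replicate 3 counted and 12 with the block. Among genes that passed under no setting, signs turned for Lrp6 (-0.035 without short RNA genes, -0.027 at equal upper quartiles, -0.018 after quantile normalization, -0.042 with the block), Lrp5 (0.12, block) and Dvl2 (0.12, block). They also turned when 1 library was left out, with ranges of -0.97 to 0.38 for Wnt7a, -0.43 to 0.68 for Wnt3, -0.91 to 0.063 for Wnt4, -0.26 to 0.95 for Wnt5b, -0.022 to 1.19 for Fzd5, -0.16 to 0.24 for Lrp6, -0.15 to 0.73 for Sfrp1, -0.57 to 1.57 for Znrf3, -0.71 to 0.11 for Dvl2 and -1.19 to 0.022 for Tcf7. The cause was not tested. With 1 Npy library left, it is assumed to vary like the Pomc group.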
